A study of Mus musculus with 27 samples.

Results

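The 15 RNA-seq samples taken from MlxKO mice at 20 months of age were compared by tissue, and the genes that were present in 1 tissue and close to absent in the others were described. These 15 are all the samples labelled 20 months among the 27 of the series, and they comprise 5 livers (codes 16, 17, 18, 19 and 74), 5 adipose tissues (36 to 40, labelled omental and described as abdominal white adipose tissue in the study's methods) and 5 skeletal muscles (56 to 60). All came from male mice that carry floxed Mlx alleles (Mlx Flox/Flox) on a cross with B6.129 mice of the Gt(ROSA)26Sortm1(cre/ERT2)Tyj line, in which a tamoxifen-activated Cre recombinase is driven body-wide from the ROSA locus. Tamoxifen in corn oil was injected on 5 days at 75 mg/kg around weaning, once a mouse weighed at least 15 g, so every sample here came from a mouse treated to delete Mlx and none is a wild-type control. The deletion may be incomplete, and a supplementary table of the study lists more Mlx expression left in skeletal muscle than in adipose tissue or liver at the older age. The sample codes and a supplementary table of the study give the age as 18 months where the labels say 20. The labels do not say which muscle was taken, nor whether any mouse gave more than 1 of the tissues at this age, so p-values measure the spread between these samples.

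Hepatocytes, white adipocytes and skeletal muscle fibres are different cell types, and each runs its own set of transcription factors. Liver-enriched factors such as Hnf4a and the Foxa proteins drive genes for plasma proteins, bile acids and detoxification, Pparg and Cebpa drive the adipocyte programme, and the Myod1 family with Mef2 factors drives the contractile apparatus. Many enzymes of central metabolism are also encoded by paralogs of which liver, fat and muscle use different ones, and the Hox genes mark the position along the body axis at which a cell's ancestors arose. Mlx, the gene deleted here, encodes the common partner of MondoA (Mlxip) and ChREBP (Mlxipl), which sense glucose in muscle and in liver and fat.

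Reads on genes numbered 19007751 to 24179928 in the livers, 16470602 to 25673919 in the adipose tissues and 14476955 to 17961438 in the muscles. Values are CPM, reads scaled to the depth of the sample, that the authors further divided by a factor for each sample, and they are not divided by gene length, so levels of different genes are not compared. A count of 3 reads, below which a value of 0 cannot be told from a low level, came to a value of 0.0703 to 0.220, a limit that covers counting error only. The 20 most abundant genes took 19.8% to 23% of the reads in liver, 26.2% to 28.8% in muscle and 10.7% to 12.7% in adipose tissue. The labels name a lipid tissue kit for the RNA of adipose tissue and muscle and a standard kit for liver, while the study's methods describe a single kit for all samples. If the labels hold, kit and tissue cannot be told apart between liver and the others. All 15 samples carried the defining genes of their label and differed from each of the other labels by them, as given below.

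Genes were called restricted to a tissue when the value was at least 10 in each of its 5 samples and under 1 in each of the 10 others. The promoters of a few of them are shown, for muscle because they hold letters read by factors of that tissue. For adipose tissue a pair of paralogs is shown. Upstream sequence of 250 bases was taken from RefSeq (GRCm38.p6), which had an entry for 148 of the 183 genes restricted to liver, 11 of the 12 restricted to adipose tissue and 87 of the 127 restricted to muscle. The letters CAAAGTCCA, a form of the site read by Hnf4a, were searched on both strands and stood in 5 of 185 promoters of liver-restricted genes (2.70%), against 126 of all 32851 promoters (0.384%), 0 of 102 promoters of muscle-restricted genes and 0 of 15 of adipose-restricted genes. Other letters searched on both strands included GTTAATNAT, with N any base, a part of the site of the HNF1 factors. They stood in 15 of the 185 liver-restricted promoters (8.11%), against 242 of all promoters (0.737%) and 0 of the adipose- and muscle-restricted. TATAAA was in 20.5% of liver-restricted, 25.5% of muscle-restricted, 6.67% of adipose-restricted and 12.4% of all promoters. TTGCGCAA, a form of the site of the C/EBP factors, was in 0 of the liver-restricted and 0 of the adipose-restricted promoters (0.164% of all). The direct repeat DR1, read by Pparg with its Rxr partner among others, was likewise in 0 of both (0.0335% of all). Letters this rare would seldom appear in sets of 185 and 15 promoters, so a count of 0 there cannot be read as a lack.

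Of the sites bound by Mef2 factors, 2 forms were searched on both strands, the letters CTA, then TTTA or AAAA, then TAG. They stood in 5 of 102 promoters of muscle-restricted genes (4.90%), against 80 of all promoters (0.244%) and 0 of the promoters of liver-restricted genes. The 5 genes were Clcn1, Asb12, Asb16, Dupd1 and Hspb3. The 2 with the largest differences, a pair chosen after the values were seen, are printed. Clcn1 (chr6:42286435-42286684, plus strand, match 51 bases before the start) encodes the chloride channel of the muscle membrane, and Asb12 (chrX:95478130-95478379, minus strand, match 48 bases before the start) belongs to a family of adaptors of ubiquitin ligases. The capitals mark the match, which lies on the reverse strand for Clcn1.
Clcn1: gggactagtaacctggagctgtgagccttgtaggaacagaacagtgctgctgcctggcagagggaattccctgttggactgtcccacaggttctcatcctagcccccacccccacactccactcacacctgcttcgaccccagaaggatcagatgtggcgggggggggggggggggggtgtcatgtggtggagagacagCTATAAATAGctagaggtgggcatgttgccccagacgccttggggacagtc
Asb12: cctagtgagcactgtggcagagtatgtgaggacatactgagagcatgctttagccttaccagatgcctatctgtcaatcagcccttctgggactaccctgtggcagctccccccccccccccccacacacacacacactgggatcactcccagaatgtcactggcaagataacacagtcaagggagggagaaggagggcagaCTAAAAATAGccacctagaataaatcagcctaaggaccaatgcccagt
The shorter letters CAGCTG, a form of the E-box read by Myod1 and by many other factors, were in 26.5% of muscle-restricted promoters, 10.8% of liver-restricted, 26.7% of adipose-restricted (4 of 15) and 13% of all promoters. Arxes1 and Arxes2, neighbours on chromosome X that both met the adipose rule, had identical sequence over these 250 bases. Their promoter is therefore printed once (chrX:135993570-135993819, plus strand for Arxes2). None of the letters searched for Hnf4a, the C/EBP factors, DR1 or the Mef2 factors was in it. Each of these is rare among all promoters, so their absence is not read as a trait.
Arxes2: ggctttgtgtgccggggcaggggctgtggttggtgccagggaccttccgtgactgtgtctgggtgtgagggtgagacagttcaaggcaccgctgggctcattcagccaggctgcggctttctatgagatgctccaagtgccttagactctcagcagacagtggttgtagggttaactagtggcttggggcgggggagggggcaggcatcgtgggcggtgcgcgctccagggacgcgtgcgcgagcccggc
A match is a description of the sequence, and no factor's binding was measured.

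Mlx, the targeted gene, was read first. It has gene ID 21428 and lies on chromosome 11 at 101086707 to 101092207 (GRCm38.p6), where it overlaps Psmc3ip. Its value was 21.1, 26.1, 25.6, 27.8 and 18.8 in the 5 livers in the order of their codes, 8.19, 10.6, 13.9, 10.5 and 9.98 in the adipose tissues and 11.3, 9.17, 10.6, 10 and 10.3 in the muscles. On these deposited values every liver lay above every adipose tissue and muscle. Against the other 10 samples the log2 difference was 1.11 for liver (p = 0.000333 by an exact permutation test, two-sided, which is the lowest p that 3003 splits can give, and 0.000999 after Benjamini-Hochberg adjustment over the 3 tissues). For adipose tissue it was -0.54 (exact permutation p = 0.0946, adjusted 0.0946) and for muscle -0.58 (exact permutation p = 0.0683, adjusted 0.0946). The limma fit over all genes, described next, gave adjusted p = 1.41e-07, 0.000458 and 0.000206 for liver, adipose tissue and muscle, so the calls for adipose tissue and muscle differ between the tests. On CPM without the authors' factor the liver difference shrank to 0.645 (exact permutation p = 0.0137, adjusted 0.0205). The adipose difference there turned to 0.301 (adjusted exact p = 0.279) and the muscle difference was -0.946 (adjusted exact p = 0.000999). The value sums reads over the whole gene, including exons outside the deleted segment, so it does not check the deletion. Of the partners of Mlx, Mlxipl was at 139.6 to 209.6 in the livers, 19.6 to 40.8 in the adipose tissues and 66.5 to 91.6 in the muscles. Mlxip showed another order, with 149 to 243 in muscle, 52.7 to 65.1 in adipose tissue and 10.6 to 22.3 in liver, where muscle differed from the mean of the others by 2.65 on the log2 scale (limma adjusted p = 3.61e-11).

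Each tissue was then set against the mean of the other 2 by limma on log2(value + 1), a scale that understates the change of low genes, for the 14523 genes that reached a value of 1 in 5 or more of the samples. These 3 comparisons share their samples, so a gene high in 1 tissue counts as lower in the others. At an adjusted p under 0.05, 37.4% of the genes tested were higher and 40.9% lower in liver, 38.6% higher and 40.4% lower in adipose tissue, and 36.7% higher and 45.5% lower in muscle, so that 78.3%, 79.0% and 82.1% were called in either direction. The balance depended on the scaling, since genes that were higher made up 47.7%, 48.9% and 44.7% of the calls in liver, adipose tissue and muscle on the deposited values, and 29.7%, 78.3% and 31.4% on CPM without the authors' factor. That scaling moved the median difference of all genes from -0.06 to -0.50 in liver, from -0.03 to 0.79 in adipose tissue and from -0.14 to -0.51 in muscle. With a scaling that ignored the 20 most abundant genes of each sample, the share of higher calls was 30.7%, 73.2% and 37.8%. A gene can pass this test by differing from 1 tissue only. Higher than each of the other tissues by a log2 difference of at least 1 and an adjusted p under 0.05 in both were 2044 genes in liver (14.1%), 1898 in adipose tissue (13.1%) and 1853 in muscle (12.8%).

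The restricted rule left far fewer genes, and most of them in liver and muscle. It held for 183 genes in liver, 168 of them protein-coding, for 127 in muscle and for 12 in adipose tissue, of 36333 in the table. These genes were chosen by their values, so the values are given as a description with no test, and fewer cells of a type cannot be told apart from less RNA per cell. The mean value in the home tissue had a median of 95.4 over the liver-restricted genes, 50.5 over the muscle-restricted and 33.8 over the adipose-restricted. Just inside the threshold were Cldn14, whose lowest liver held 10.3, and Slc26a1, whose highest value outside liver was 0.973, and just outside were Gm32063 (9.996 in its lowest liver) and Upb1 (1.002 in its highest sample elsewhere). For adipose tissue the lowest home values nearest the threshold were those of Hcar1 (12.6, inside) and Prr32 (9.90, outside), and for muscle those of Sec14l5 (10.7, inside) and Chrne (9.85, outside). The rule was then read in the 12 samples at 5 months, which it had not used, 4 of each tissue. The same 4 codes recur in each tissue at that age, and a supplementary table of the study lists them as mouse numbers. These 12 samples thus come from 4 mice. It held there again for 114 of the liver genes (62.3%), 70 of the muscle genes (55.1%) and 2 of the adipose genes (16.7%).

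**Figure D1:**
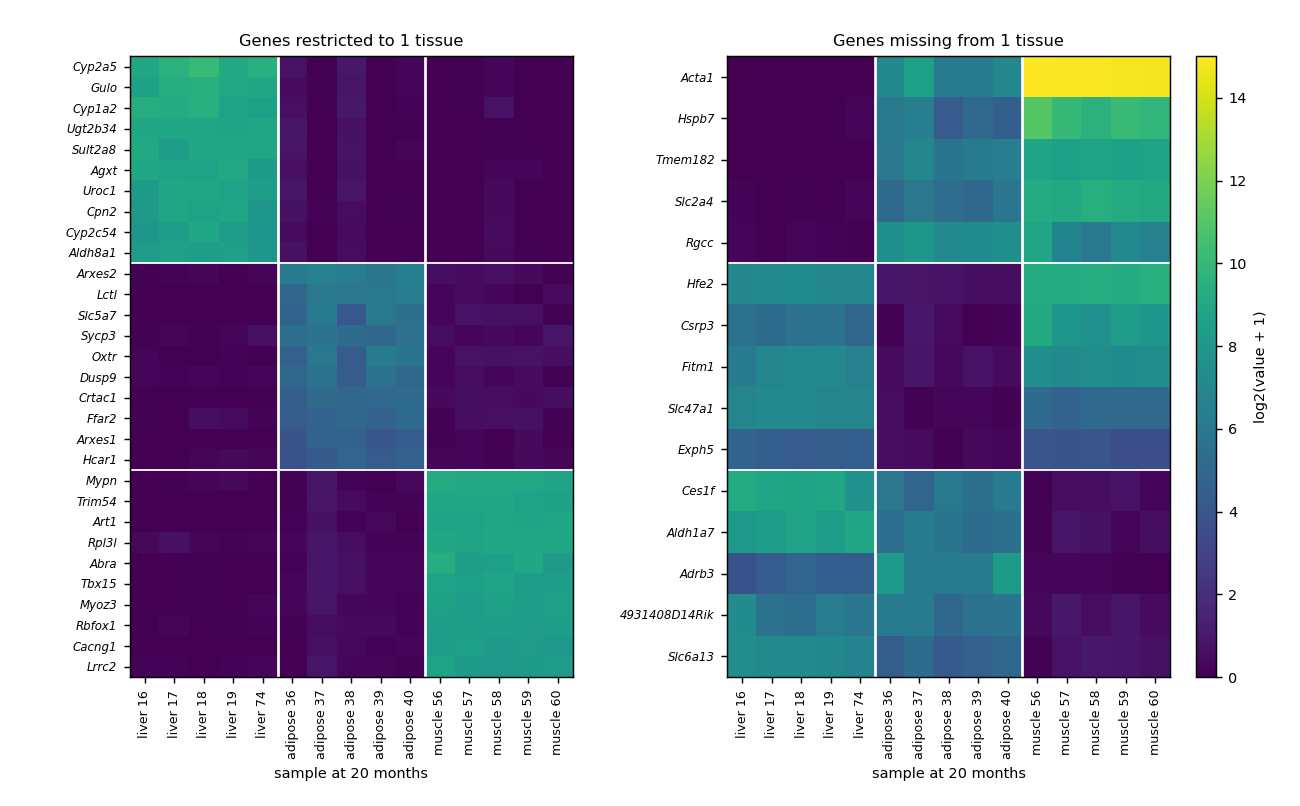
Colour gives log2(value + 1) in the 15 samples at 20 months for the 10 genes with the largest difference among those restricted to liver, adipose tissue and muscle (left), and for the 5 genes most clearly missing from each of these tissues (right). On the left each block is bright in its own 5 samples and near 0 elsewhere, while adipose 36, adipose 38 and muscle 58 hold faint traces of the liver block and adipose 37 of the muscle block. On the right each block is near 0 in 1 tissue and present in the other 10 samples.

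Of the 10 genes with the largest differences among those restricted to liver, 9 encode enzymes, most of them acting on foreign compounds or amino acids. Cyp2a5, a cytochrome P450 that oxidises coumarin and nicotine, was at 504, 759, 1108, 544 and 749 in the livers and at most 0.952 elsewhere, although 37% of its 50-base words are shared with Cyp2a4, so reads may be divided between the paralogs. Gulo, which makes the last step of vitamin C synthesis (chromosome 14, 65986786 to 66009254), was at 381, 652, 715, 542 and 481 in liver and at most 0.773 elsewhere. Cyp1a2, a P450 that oxidises caffeine, was at 650.1, 602, 710.3, 421 and 365. In all 3, the spread among the livers was small beside the gap to the other tissues. Liver values ranged from 433 to 495 for the glucuronosyltransferase Ugt2b34 and from 317 to 556 for the sulfotransferase Sult2a8. Agxt, the peroxisomal enzyme that clears glyoxylate, ranged from 284 to 536, Uroc1, an enzyme of histidine breakdown, from 282 to 509.9, and Aldh8a1, an aldehyde dehydrogenase of tryptophan breakdown, from 248 to 367. Cpn2, the regulatory subunit of a plasma carboxypeptidase, and Cyp2c54, another P450, completed the 10 with the largest differences, with 249 to 477 and 237 to 499. By symbol, the 183 genes held 17 of 61 tested members of the Cyp family, 7 of 15 Ugt, 6 of 17 Mup, 4 of 15 Serpina and 4 of 12 Ces genes, against 1.26% of all genes tested. Shares were lower for Slc (13 of 268), Abc (4 of 41) and Apo genes (2 of 31), and all these families were picked after the values were seen.

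The lists of liver genes separated the livers from the rest throughout. All 20 genes for secreted plasma proteins were higher in liver (median log2 difference 10.43, beside -0.06 over all genes tested), and each had its lowest liver above the highest of the other 10 samples, which was so for 19.4% of all genes tested. Yet 0 of these 20 met the restricted rule, because traces of them appeared elsewhere, as given below. All 20 metabolic liver genes were higher as well (median 8.07), and 7 of them were restricted, against 37.4% and 1.26% of all genes tested. Among these was Otc of the urea cycle, with 266, 329, 354, 287 and 343 in liver and at most 0.707 elsewhere. Cps1, the entry enzyme of that cycle, was at 974 to 2069.7 in liver but reached 7.22 in adipose 36, 2.11 in adipose 38 and 1.3 in muscle 58. Genes of bile acid handling were among the restricted ones, with 3 examples chosen after their values were seen. Cyp7a1, the rate-limiting enzyme of bile acid synthesis, was at 35.3, 46.5, 127, 98.3 and 64.3 in the livers, Slc10a1, which takes bile acids up from blood, at 271, 325, 324, 344 and 175, and Abcb11, which exports them into bile, at 278, 355, 321, 306 and 197. All livers thus held the 3 genes, and Cyp7a1 varied most among them. G6pc, the last enzyme of glucose release, varied from 81.2 to 939 between livers, with liver 16 highest and liver 74 lowest, and was not restricted. Liver 74 was also the lowest liver for Alb (26970 against 53723 to 69595) and for Cps1 (974 against 1920.4 to 2069.7).

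Only 12 genes met the rule in adipose tissue, and the familiar adipocyte genes were not among them. The gene with the largest difference was Arxes2, an X-linked gene named for its expression in adipocytes, at 73.2, 93.4, 81, 57.9 and 87.1 in the adipose tissues and at most 0.506 elsewhere, followed in that family by Arxes1 at 13.3, 26.8, 23.8, 15.1 and 19.7. About 40.1% of the 50-base words of Arxes2 are shared with Arxes1, so their separate levels are uncertain. Receptors for small metabolites formed a second kind, with Ffar2, a receptor for short-chain fatty acids, at 20.2, 25, 31.6, 25.5 and 37.2, and Hcar1, the lactate receptor, at 12.6, 18.2, 29.3, 19.6 and 24.5. Oxtr, the oxytocin receptor, was at 23.6, 62.9, 19.4, 72.3 and 56.1, so that adipose 36 and adipose 38 were well below the other adipose tissues. The choline transporter Slc5a7 had the same pair lowest, at 26.1, 72.8, 16.3, 64.1 and 45.5. Dusp9, a phosphatase of MAP kinases, was at 19.4 to 49.6, Lctl, a lactase-like protein of the klotho family, at 29.9 to 76.7, and Crtac1, an extracellular matrix protein, at 22.5 to 36.4. Sycp3, known as a component of the meiotic synaptonemal complex, was at 42.7, 52.2, 37.4, 32.5 and 49.4 in adipose tissue and at most 0.784 elsewhere. The remaining 2 were the long non-coding 1700047G03Rik (lowest adipose value 12.8, mean 18.8) and Negr1, a neuronal adhesion protein (lowest 13.7, mean 19.2).

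In the 4 adipose tissues at 5 months, these 12 genes were under 1 in all 8 livers and muscles of that age, but only Arxes2 (11 to 57.1) and Negr1 (16.1 to 20.8) were at least 10 in all 4. In 10 of the 12, all 4 adipose tissues still exceeded every other sample of that age. Sycp3 ranged from 2.48 to 3.64 at 5 months, Lctl from 0.554 to 7.04 and Oxtr from 7.5 to 37.3, while their values at 20 months are those above.

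Among the 127 genes restricted to muscle were structural, regulatory and channel genes of the fibre. Mypn, a scaffold of the Z-disc (chromosome 10, 63115795 to 63203952), was at 609, 522, 544, 527 and 438 in the muscles and at most 0.779 elsewhere. Trim54, a ubiquitin ligase of the sarcomere, was at 502, 507, 493, 422 and 390.5, and Myoz3, another Z-disc protein, at 361, 314, 381, 319.7 and 352. The 5 muscles lay close together for these 3 genes. Art1, an enzyme that attaches ADP-ribose to surface proteins, spanned only 419 to 456, and Rpl3l, the muscle paralog of ribosomal protein Rpl3, 431 to 517. Cacng1, a subunit of the calcium channel that triggers contraction, ranged from 257 to 348 and the splicing factor Rbfox1 from 297 to 338. Abra, an actin-binding protein of muscle, was less even, at 659, 320.4, 348, 487 and 281. Lrrc2, a leucine-rich repeat protein, had muscle 56 at 408 and the others at 256 to 299, and muscle 56 was highest for Abra too. The Asb family, to which Asb12 belongs, had 5 of 16 tested members in the set, and the sarcoglycans 2 of 5, against 0.874% of all genes tested. The set held 3 of 33 Klhl, 3 of 47 Trim, 4 of 46 Kcn and 2 of 16 Cacn genes, families that were again picked after the values were seen.

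All 30 genes of the contractile list were higher in muscle (median log2 difference 11.01, beside -0.14 over all genes), and each had its lowest muscle above every other sample, as did 22.1% of all genes tested. Just 2 of the 30, Myh7 and Smpx, met the restricted rule, since 17 of the 30 were at least 1 in every adipose tissue. Myh4, the myosin of the fastest fibres, was at 54015, 56552, 66105, 49838 and 52439 in muscle, 4.54, 101, 19.5, 11.1 and 9.44 in adipose tissue and 0 in every liver. Myh1 was at 9957 to 12533 and Myh2 at 1303 to 2559 in muscle, with between 22.9% and 25.4% of their 50-base words shared with other myosins. Myh7, the slow myosin, varied between muscles, at 112, 110.5, 42.4, 209 and 60. The slow troponins Tnnt1 (37.9, 31.4, 12.6, 53.2 and 23.7) and Tnnc1 (24.3, 18.4, 6.51, 35.2 and 12.8) had the same highest sample, muscle 59, and the same lowest, muscle 58. All 9 genes of the neuromuscular junction were higher in muscle (median 4.19), as were 36.7% of all genes tested. Among them 3 were restricted, Chrna1, Rapsn and Dok7 (0.874% of all genes tested). Chrna1, a subunit of the acetylcholine receptor, was at 21.6, 24.2, 20.2, 19.3 and 13.8, and Rapsn, which clusters the receptor, at 19.1, 22.1, 26.6, 21.4 and 21.8. Musk, the receptor kinase of the junction, was at 50.3, 25.6, 22.1, 20.7 and 15.5, with muscle 56 again highest.

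Of 19 adipocyte genes in the table, all 19 were higher in adipose tissue than in the mean of the others (median 5.22, beside -0.03 over all genes), 17 were higher than in each of the others, and the same number had its lowest adipose sample above every other, as did 16.9% of all genes tested. None was restricted, and 14 of the 19 were at least 1 in every muscle. Adipoq, the adipocyte hormone adiponectin, was at 1179.8, 1097, 864, 789 and 1182 in adipose tissue, 7.56, 17.8, 10.7, 17.7 and 4.06 in muscle and 0 in every liver. Lep, the satiety hormone leptin, was at 316, 1627, 659, 881 and 496 in adipose tissue, with adipose 37 highest and adipose 36 lowest, and at 1.35 to 20.9 in muscle. Plin1, which coats the lipid droplet of adipocytes, was at 432 to 785 and 2.02 to 13.8. The pair that did not pass against each tissue were Car3 and Mrap. Car3, a carbonic anhydrase of fat and slow muscle, was at 2384 to 5694 in adipose tissue and 2416 to 3225 in muscle, and the ranges overlapped. Mrap, an accessory protein of the receptor for adrenocorticotropic hormone, was at 59.7, 60.4, 73.6, 61.7 and 39.7 in liver and 32.9, 55.5, 41.5, 34.8 and 34.8 in adipose tissue, and under 1 in every muscle. Pparg, the master regulator of adipocytes, was at 47.7 to 78.9 in adipose tissue, 13.4 to 19.9 in liver and 4.06 to 6.61 in muscle. Adrb3, the adrenergic receptor that starts lipolysis in fat, was high in a pair of samples, adipose 36 (268) and adipose 40 (291), and lower in the other 3, at 69.6 to 75.7.

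Transcription factors were divided between the tissues as well. All 15 liver factors were higher in liver than in each other tissue (14.1% of all genes tested), with a median log2 difference of 5.32. Of these 15, 7 were restricted (1.26% of all genes tested). Foxa1, a pioneer factor that opens liver chromatin, was at 22.3, 22.1, 19.1, 23.2 and 15.5 in the livers and 0 in all 10 other samples. Foxa2 (22.8 to 32.7), Foxa3 (34.7 to 79.7) and Onecut2 (78.3 to 109.6) had traces of at most 0.268 elsewhere. The receptors of foreign compounds Nr1i2 (63 to 93.8) and Nr1i3 (144 to 251) and the bile acid responsive repressor Nr0b2 (19.4, 75.6, 42.7, 31.4 and 31.8) were the other restricted ones. Hnf4a, at 523 to 705 in liver, was not restricted, because adipose 36 held 10.8 and adipose 39 held 2.11, against 0 in adipose 37.

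In muscle all 14 tested factors were higher than in each other tissue (median 4.42), as were 12.8% of all genes tested. Pitx1 was too low to be tested. Of the myogenic factors, Myod1 was at 18, 10.7, 15.8, 9.7 and 12.6, Myog at 6.78, 2.99, 2.17, 3.38 and 2.92 and Myf5 at 1.03 to 1.89, and all 3 were at most 0.0595 in any liver or adipose tissue. Myf6, the factor of mature fibres, was at 181, 87.9, 94.5, 86.5 and 91.4, with muscle 56 highest. Pax7, the marker of satellite cells, the stem cells of muscle, was at 2.93, 2.26, 4.34, 3.01 and 3.49 and at 0 in all 10 other samples. Tbx15, a T-box factor of fast fibres and of some fat depots (chromosome 3, 99240348 to 99354260), was at 401, 358, 426, 304 and 338 in muscle and at most 0.895 in adipose tissue.

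Factors of the adipose list were less separated. In adipose tissue 7 of 11 were higher and 2 lower than in the mean of the others, against 38.6% and 40.4% of all genes tested. Higher than in each of the others were 3, against 13.1% of all genes. In liver the same list had 7 higher and 2 lower, and 4 higher than in each of the others (37.4%, 40.9% and 14.1% of all genes tested). Cebpa was at 524 to 738 in liver, above the 329 to 510.2 of adipose tissue, and at 8.08 to 12.6 in muscle. Ebf1 was at 90.6, 107, 56.8, 70.1 and 84.6 in adipose tissue and 9.33 to 15.9 in muscle, and Ebf2 at 20.7, 22.8, 11.2, 15.4 and 19.2 and 6.98 to 8.31. Both had adipose 38 lowest and adipose 37 highest, and both were under 1 in every liver. Klf15 went the other way, at 9.22 to 16.4 in adipose tissue against 129 to 169 in liver and 69.5 to 110.2 in muscle, and Mlxipl was the other factor lower in adipose tissue. Wt1, a factor of mesothelium and of visceral fat precursors, was at 8.46, 6.23, 5.59, 7.12 and 6.36 in adipose tissue and 4.94, 4.51, 2.6, 3.41 and 4.26 in liver and at 0 in every muscle, and Tcf21 shared this absence from muscle with 7.04 to 9.77 in liver and 1.52 to 3.24 in adipose tissue. For Cebpb in adipose tissue the direction depended on the scaling, with a difference of -0.37 (limma adjusted p = 0.0936) that turned to 0.522 without the authors' factor.

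The Hox genes divided adipose tissue from muscle and both from liver. Of 39 genes, 29 were tested, and liver was higher for 0 of them and lower for 26, against 37.4% and 40.9% of all genes tested. At 0 in all 5 livers were 20 of the 39. Adipose tissue was higher than each other tissue for 13 (13.1% of all genes tested) and muscle for 8 (12.8% of all). Those of adipose tissue came from the front and middle of the clusters. Hoxc8 was at 44, 56.3, 37.9, 33.3 and 45.6 in adipose tissue, 0.848, 1.2, 0.723, 0.882 and 1.07 in muscle and 0 in every liver, a log2 difference of 4.97 (standard error 0.115, limma adjusted p = 8.74e-15). Hoxc6 was at 16.7 to 29.2 in adipose tissue and 3.91 to 7.77 in muscle, and Hoxb8 at 16, 6.03, 6.54, 8.46 and 6.54 and 0.651 to 1.18. Apart from Hoxa4, those of muscle came from the rear of the A and C clusters. Hoxc10 was at 89.9, 69.5, 71.8, 71.7 and 77.8 in muscle and 0.0896 to 0.633 in adipose tissue, a log2 difference of 6.06. Hoxa10 (19.2 to 24.2) and Hoxa9 (11 to 13.7) also met the restricted rule, and Hoxa11 (6.03 to 8.35), Hoxa13 (2.33 to 3.65) and Hoxc11 (3.21 to 5.54) were at most 0.117 in every other sample. Hoxc9 lay beside these at 11.7, 13.1, 11.5, 11.1 and 11.1 in muscle and 2.8, 3.23, 3.06, 2.93 and 2.51 in adipose tissue. The neighbours Hoxc8, Hoxc9 and Hoxc10 therefore had 3 patterns, highest in adipose tissue, higher in muscle with adipose tissue above 2, and in muscle almost alone.

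Genes of the B cluster were present in all adipose tissues, and adipose 36 was highest for each of Hoxb2 to Hoxb9. Hoxb9 was at 8.9, 1.01, 1.16, 3.52 and 1.91 in adipose tissue and 1.04, 1.2, 0.868, 1.1 and 0.784 in muscle, so that adipose 36 and adipose 39 lay above every muscle by the most and adipose 37 and adipose 38 lay within the range of the muscles. The order of the 5 adipose tissues for Hoxb9 was also that of the summed duct epithelium genes given further on, whose part in it was not tested. Hoxb3 was at 23.1, 7.63, 5.98, 11.4 and 8.78, with adipose 39 the next highest. The summed Hox value was 283 in adipose 36 against 147 to 186 in the others. In liver, the 10 genes above 0 in all 5 samples came from the front and middle of the A and B clusters, among them Hoxb4 (1.78, 1, 3.71, 1.42 and 4.26), Hoxb3 (0.651 to 3.01) and Hoxa5 (0.682 to 1.42).

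**Figure D2:**
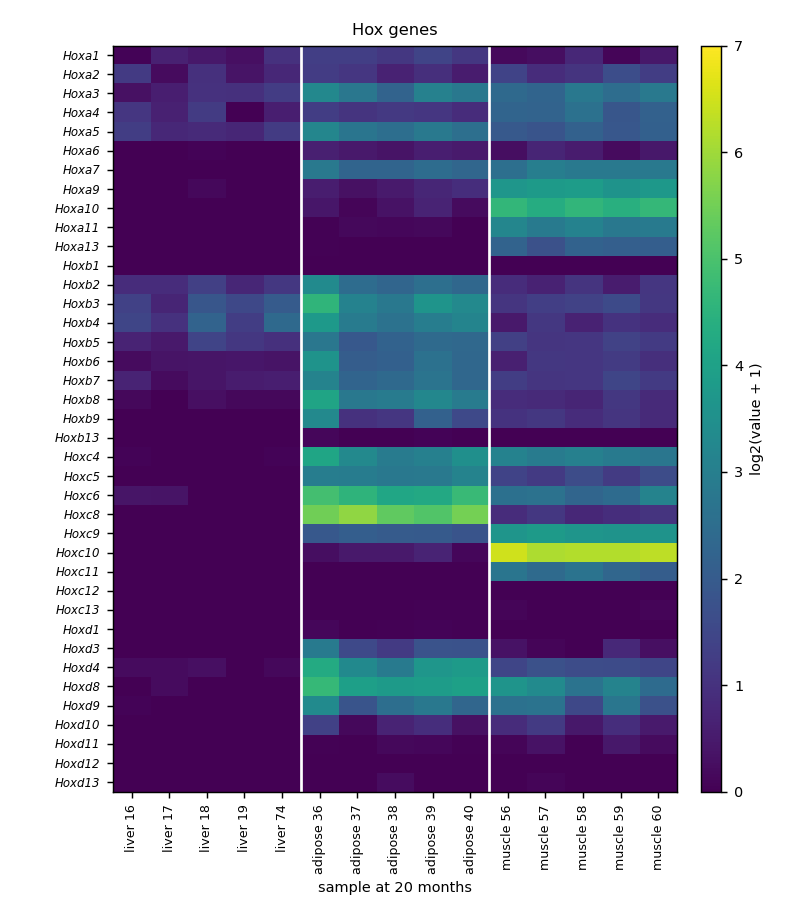
Colour gives log2(value + 1) for the 39 Hox genes, in their order in the A, B, C and D clusters, in the 15 samples at 20 months. Livers are dark apart from faint genes at the front of the A and B clusters, adipose tissues are brightest at Hoxc8 (33.3 to 56.3) and across the B and D clusters, with adipose 36 brightest, and muscles are brightest at Hoxc10 (69.5 to 89.9) and Hoxa10.

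Several enzymes of energy metabolism had different paralogs highest in liver and in muscle. Of the 43 genes of this list, 18 were higher in muscle than in each other tissue (12.8% of all genes tested), 12 in liver (14.1% of all) and 5 in adipose tissue (13.1% of all), so that the adipose share was near that of all genes. Values are read within each gene. For glucose entry, Slc2a2 was at 24, 55.9, 59.9, 51.1 and 43.1 in liver and under 1 elsewhere, and the insulin-responsive Slc2a4 at 601, 551, 696, 601 and 544 in muscle, 35.1, 61.9, 40.5, 31.8 and 59.1 in adipose tissue and at most 0.201 in liver. For the first phosphorylation, Hk2 was at 626, 306, 399, 523 and 312 in muscle, and Hk1 was highest in adipose tissue (35.7 to 59.2). Hk3, which is known from myeloid cells, was at 11.8, 52.6, 132, 81.4 and 25 in adipose tissue, and adipose 38 and adipose 39, the highest, were also among the 3 highest for the summed macrophage genes. For phosphofructokinase, Pfkm was at 4748 to 5945 in muscle against 8.97 to 17.3 in liver, a log2 difference of 8.49 (standard error 0.15, limma adjusted p = 1.44e-17), while Pfkp was at 62.2 to 74.2 in adipose tissue and at most 13.7 elsewhere.

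Further down the pathway, Aldoa was at 20158, 17383, 20556, 16804 and 18315 in muscle and 99.3 to 182 in liver. Eno3 was at 5259.5 to 6997 in muscle against 8.21 to 18.6 in adipose tissue, and Pgam2 at 1072 to 1463 against 0.295 to 2.45. Pklr, the pyruvate kinase of liver, was at 19.4, 30, 32.1, 26.1 and 36.7 in the livers, but adipose 36 held 6.69 where adipose 37 held 0. Among the glycogen enzymes, Gys2 was at 96 to 163 in liver and Gys1 at 715 to 833 in muscle, and the phosphorylases were divided over the 3 tissues. Pygl was at 141 to 215 in liver, Pygm at 8034 to 10729 in muscle, and Pygb at 70.2 to 117 in adipose tissue, where it was at most 10.2 in the others. The same held for oxidative genes, where Cox6a2 (645 to 705) and Cox7a1 (141 to 189) were the forms of muscle, and Cox6a1 was at 289 to 485 in the livers, 150.4 to 189.9 in the adipose tissues and 22.1 to 27.2 in the muscles. Cpt1a, which admits fatty acids to mitochondria, was at 803 to 1103 in liver and Cpt1b at 509 to 644 in muscle and 95.5, 45.7, 26.1, 48.2 and 12.3 in liver, although 78.6% of the 50-base words of Cpt1b are shared with an overlapping readthrough gene.

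**Figure D3:**
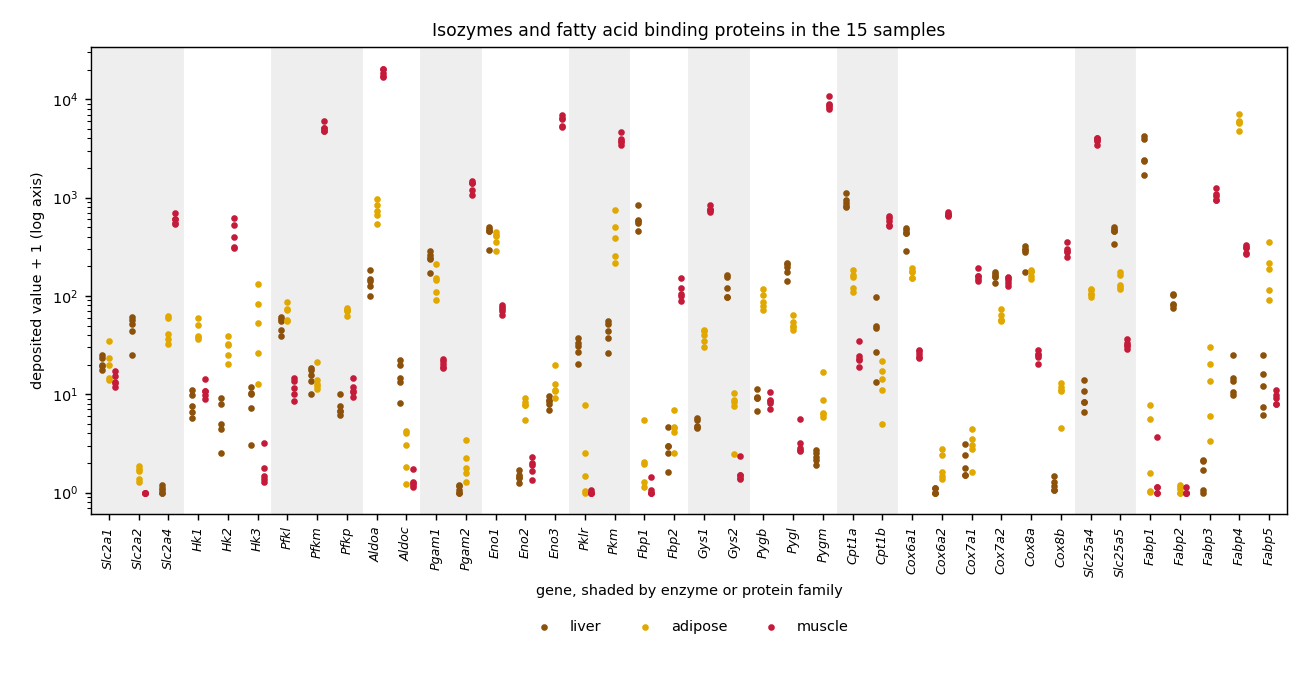
Each point is the value + 1 of 1 sample on a log axis, for paralogous transporters, enzymes and fatty acid binding proteins grouped by shading, with liver in brown, adipose tissue in yellow and muscle in red. In several families the tissues take turns, such as Slc2a2 in liver and Slc2a4 in muscle and adipose tissue, or Pygl, Pygm and Pygb.

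Fatty acid binding proteins, which carry fatty acids inside cells, followed the same division. Fabp1 was at 4246, 2379, 2385, 3921 and 1680.1 in liver, Fabp4 at 6016, 7148, 5847, 4807 and 5693 in adipose tissue and Fabp3 at 949.5, 1028, 1083, 1256 and 953 in muscle. Fabp4 was also at 268 to 328 in muscle, and Fabp3 at 2.33, 29.2, 5.03, 19.1 and 12.6 in adipose tissue, where adipose 36 was lowest. Fabp2, known from the intestine, was restricted to liver, at 103, 74.4, 80.4, 101 and 81.4. Fabp5, which macrophages and adipocytes express, was at 88.9, 186, 349.5, 215 and 114 in adipose tissue with adipose 38 highest, and the summed value of 6 macrophage genes was 889, 3165, 5045, 2597 and 1352 in these samples. The part of macrophages in these values was not tested.

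Genes missing from 1 tissue were those under 1 in its 5 samples and at least 10 in the 10 others, again a choice by value. There were 28 for liver, 14 for muscle and 5 for adipose tissue, and at 5 months 24, 3 and 1 of them met the rule. Liver lacked some genes that were read in every adipose and muscle sample. Acta1, skeletal actin (chromosome 8, 123891758 to 123894775), was at 0 in every liver, 128, 367, 75.6, 71.8 and 129 in adipose tissue and 27305 to 31568 in muscle. Tmem182, a membrane protein of muscle and fat, was at 0 in every liver and at 61.5, 116, 54.8, 74.4 and 86.1 and 430.4, 373, 412, 387 and 393. Hspb7, a small heat shock protein, and Rgcc, a regulator of the cell cycle, had muscle 56 highest, at 2112 against 803 to 1080.4 and at 464 against 64.2 to 134. Adipose 37 was the highest adipose tissue for Acta1, Tmem182 and Hspb7, and Acta1 and Hspb7 also stand among the muscle genes whose level in adipose tissue is described further on, so their presence in fat cells themselves was not tested. Slc2a4, given above, was the fifth.

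Adipose tissue lacked Hfe2, Csrp3, Fitm1, Slc47a1 and Exph5. Hfe2, which encodes the iron regulator hemojuvelin (chromosome 3, 96525163 to 96529216), was at 120.0, 136, 155, 123 and 115 in liver, 634, 589.9, 652, 610.4 and 683 in muscle and 0.469 to 0.855 in adipose tissue. Fitm1, a protein of lipid droplet formation, was at 75.8 to 138 and 142 to 168 in liver and muscle against 0.268 to 0.895. Csrp3, a LIM protein known from muscle, was at 47.8, 39.2, 49.5, 50.5 and 30 in liver, while contractile genes such as Acta1, Myh4 and Myh1 were at 0 in every liver. Slc47a1, an exporter of organic cations, and Exph5, a protein of vesicle transport, were at 111 to 141 and 18.5 to 26.6 in liver. Muscle lacked a set that liver and adipose tissue share. Ces1f, a carboxylesterase, was at 193 to 594 in the livers, 29 to 73.5 in the adipose tissues and 0.0652 to 0.661 in the muscles. Aldh1a7, an aldehyde dehydrogenase, was at 255 to 468 and 37.9 to 75.1, and Slc6a13, a transporter of GABA and taurine, at 105 to 164 and 17.8 to 37.8. Adrb3 and the long non-coding 4931408D14Rik (42.5 to 150.4 in liver) were the others with the largest differences.

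Genes of a foreign tissue in single samples were read with reporters that the host tissue had no part in choosing, which had a value of at least 100 in each home sample and under 1 in each sample of the tissue that was neither home nor host. For liver genes in adipose tissue there were 182 reporters. Their summed value was 0.734%, 0.379%, 0.483%, 0.350% and 0.405% of the liver sum in adipose 36 to 40, but the sum rested in part on genes that all adipose tissues hold, such as Aldh1a7, Ces1f and Slc6a13. The median over the reporters separated the samples more, at 0.297% of the liver level in adipose 36, 0.186% in adipose 38, 0.0522% in adipose 39, 0.0492% in adipose 40 and 0.0120% in adipose 37. Of the 182, 120 were highest in adipose 36 and 41 in adipose 38. Alb, serum albumin (chromosome 5, 90460870 to 90476602), was at 173, 3.04, 95.8, 2.3 and 10.8 in adipose 36 to 40, against 62703, 62917, 69595, 53723 and 26970 in the livers. Apoa1, an apolipoprotein, was at 24.2, 0, 17.3, 0.305 and 0.806, Fgb, a fibrinogen chain, at 6.34, 0, 4.19, 0 and 0.418, and Hpx, the plasma heme carrier, at 10.1, 0.389, 11.4, 0.586 and 0.597. Adipose 36 and adipose 38 were thus high together for plasma proteins, and the list of 20 had a median of 0.207% of liver in adipose 36 and 0.161% in adipose 38, against 0.0150% or less in the other 3.

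Part of what distinguished adipose 36 was not shared by adipose 38. Mup14 and Mup11, major urinary proteins of liver, were at 7.31 and 5.57 in adipose 36 and at most 0.714 and 0.149 in the other adipose tissues, and Cideb, 0610005C13Rik and Apoa4 also stood at least 10 times above them. Genes of tubular and duct epithelium, a list chosen after the values were seen, were highest in adipose 36 and next in adipose 39. Cldn2, a claudin of leaky epithelia, was at 24.5, 0, 0.0297, 8.16 and 1.55 in adipose 36 to 40, Lrp2, the endocytic receptor megalin, at 29.9, 3.35, 3.24, 11.2 and 4.18, and Epcam, an epithelial adhesion protein, at 21, 0.0779, 0.773, 5.7 and 2.18. Cdh16 (19.7, 0, 0, 6.61 and 1.31), Pax8 (8.49, 0, 0, 1.66 and 0.418) and Pax2 (2.24, 0, 0, 0.984 and 0.209) had the same order. The sum of the 8 genes was 151 in adipose 36, 49.5 in adipose 39, 13.1 in adipose 40, 7.38 in adipose 38 and 5.92 in adipose 37, and it was at least 309 in every liver. The cholangiocyte list, genes of bile ducts, was also highest in adipose 36 and adipose 39, with 47.7, 24.6, 9.53, 8.27 and 8.41 in these samples. The kidney list summed to at most 1.41 in any adipose tissue and the epididymis list to 6.19 in adipose 39 and at most 1.21 in the others.

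**Figure D4:**
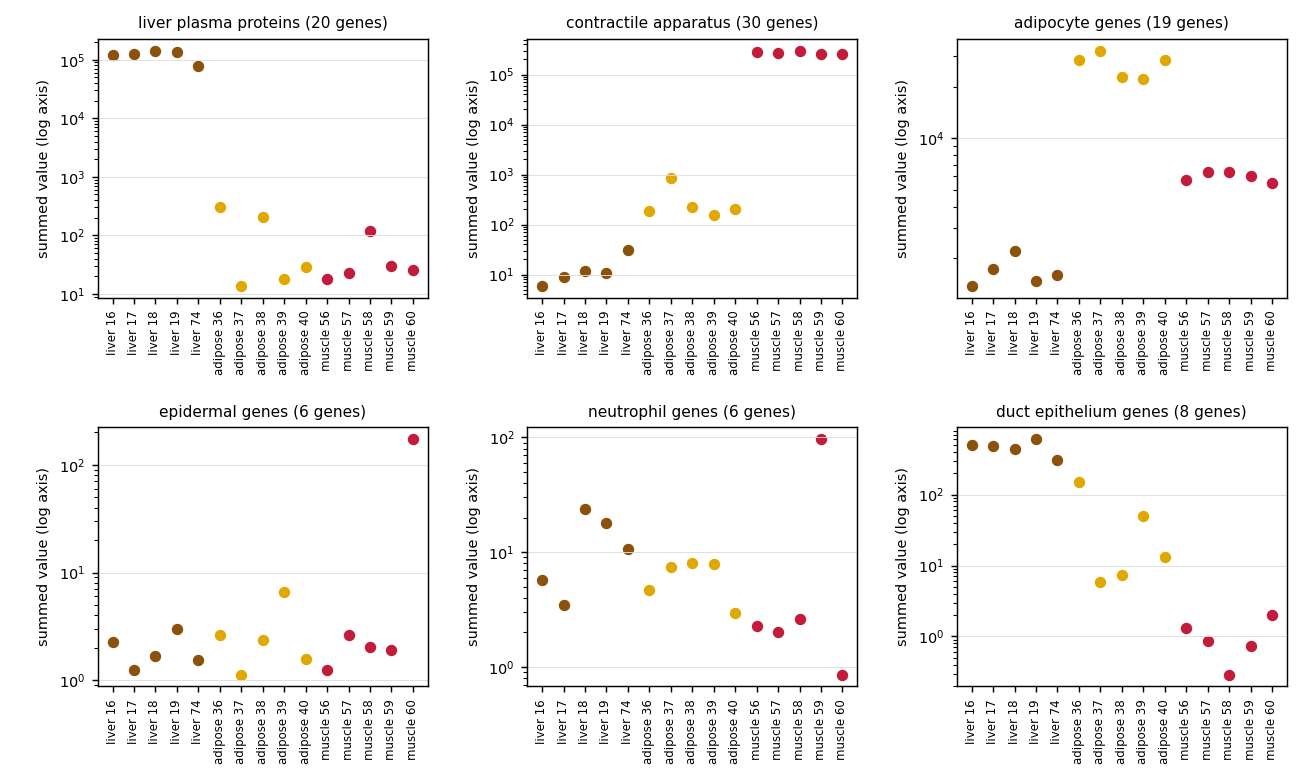
Summed value of 6 gene lists in each of the 15 samples, on log axes that differ between panels. The first 3 panels show each tissue's own list, and the others epidermal, neutrophil and duct epithelium genes, in which muscle 60 (172), muscle 59 (96.6) and adipose 36 (151) lie above the rest of their tissue.

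Liver genes in muscle were found in number mainly in muscle 58. The sum over 67 reporters, 3.59% to 4.19% of the liver sum, was carried by Hfe2 in every muscle, while the median over the reporters was 0 in the other 4 muscles and 0.0779% in muscle 58, where 54 of the 67 were above 0 against 13 to 17 in the others. Alb was at 0.522, 0.2, 43.1, 1.84 and 0 in muscle 56 to 60, and Apoa1 at 0, 0, 8.82, 0.294 and 0. In the list of 20 plasma proteins, all were above 0 in muscle 58 and 17 in muscle 59, against 6 to 9 in the other muscles. The list summed to 117 in muscle 58 and to 17.9 to 29.5 in the others. One gene of it, Vtn (vitronectin), was present in all muscles at 14.2, 20.1, 23, 22.5 and 23.1 and in all adipose tissues at 5.76 to 11.6, and its highest muscle was muscle 60, where albumin was at 0. The 9 genes that were at least 5 in muscle 58 and at least 10 times every other muscle included Alb, Apoa1, Apoa2, Bhmt, Gc, Hpx, Serpina1c and Cyp4a14. Muscle 58 was the highest muscle for Hnf4a as well (0.579, 0 in the others).

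Muscle genes in adipose tissue appeared in all 5 samples and most in adipose 37. Over 121 reporters the sum was 0.211%, 0.484%, 0.182%, 0.197% and 0.236% of the muscle sum in adipose 36 to 40, and the median 0.0723%, 0.245%, 0.101%, 0.0949% and 0.0776%. Of the 121, 88 were highest in adipose 37. Ckm, the creatine kinase of muscle, was at 6.1, 46.4, 19.4, 7.94 and 5.94 in adipose 36 to 40 against 21392 to 25411 in muscle, and Ttn, the giant sarcomere protein titin, at 1.97, 21.1, 3.96, 2.93 and 3.49. Xirp1, an actin-binding protein of injured and growing fibres, was at 4.59 in adipose 37 and at most 0.388 in the other adipose tissues. The 30 contractile genes had a median of 0.218% of muscle in adipose 37 and 0.0272% to 0.0813% in the others. Other reporters were not traces, as Sgcd, a sarcoglycan, was at 137, 205, 77.2, 135 and 203 in adipose tissue and 169 to 209 in muscle.

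**Figure D5:**
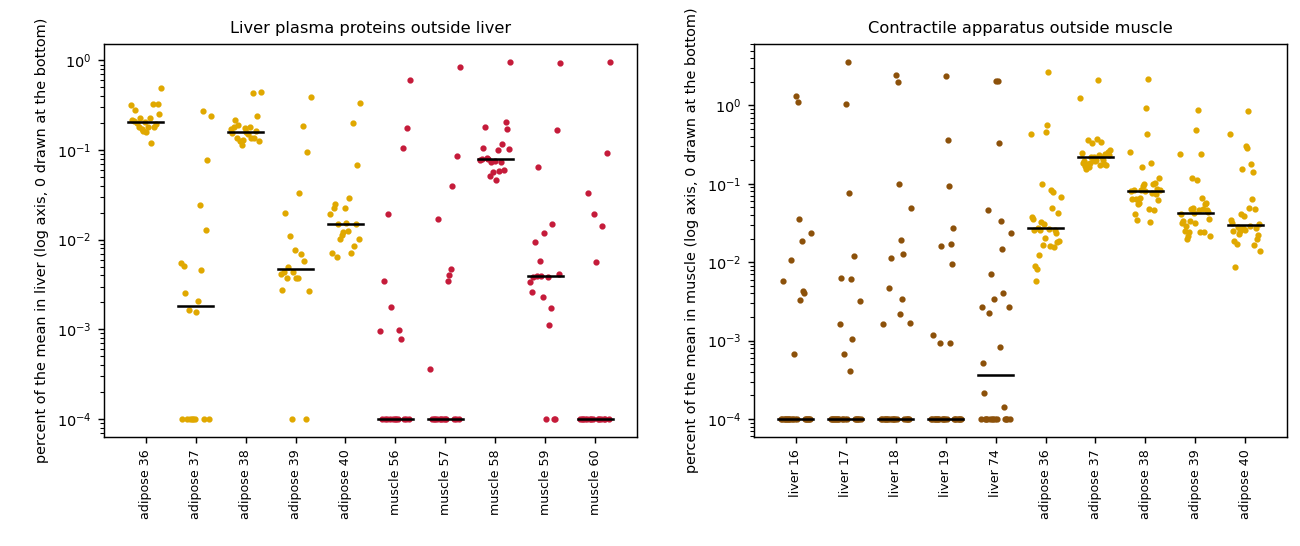
Each point is 1 gene's value in 1 sample as a percent of its mean in the home tissue, for the 20 plasma protein genes outside liver (left) and the 30 contractile genes outside muscle (right), on log axes with values of 0 drawn at the bottom edge. Black bars are medians, which stand at 0.207% in adipose 36, 0.161% in adipose 38 and 0.0789% in muscle 58 on the left and at 0.218% in adipose 37 on the right.

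In liver, muscle genes were mostly at 0 or close to it, and 18 to 25 of 42 reporters were above 0 in each liver. The sum over 42 reporters was 2.27% to 3.18% of the muscle sum and rested on Hfe2, Fitm1 and Csrp3, given above, and the median was at most 0.0264%. The contractile list summed to 31.3 in liver 74 and to 5.85 to 11.6 in the others, and Neb, nebulin, made up most of it, at 3, 6.51, 8.38, 7.89 and 27.8 in the 5 livers, while Acta1 was at 0 and Ckm at most 0.0501 in each. Klhl31 was at 1.15 in liver 74 and at most 0.106 in the others, and H19, an imprinted non-coding RNA, at 0.153, 0.701, 1.86, 0.454 and 4.21. No adipose gene could serve as a reporter in liver, since 0 genes had at least 100 in each adipose tissue and under 1 in each muscle. Adipoq, Lep and Retn, defining genes of adipocytes, were at 0 in every liver. For adipose genes in muscle there were 9 reporters, with sums of 12%, 5.75%, 3.78%, 6.13% and 3.78% of the adipose sum in muscle 56 to 60. Most of the value of muscle 56 came from Rgcc, and its median over the 9 was the lowest (0.901%), where muscle 57 had 2.63% and muscle 59 2.51%. Aoc3, an amine oxidase of adipocytes, was at 6.45, 21.7, 11.7, 19.1 and 10.7, with muscle 57 and muscle 59 highest, as they were for Adipoq and Lep.

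Genes present in 1 sample of the 15 and in none of the others, at 10 or more against under 1, numbered 10, and all were in muscle 60. They are genes of the epidermis. Krt5, a keratin of basal keratinocytes (chromosome 15, 101707069 to 101712905), was at 43.4 from 609 reads and at most 0.398 in any other sample, with 12 samples at 0. Krt77 was at 32.7 and at 0 in the other 14 samples, Krt15 at 21.8, Col17a1, a collagen that anchors keratinocytes, at 18.2, and Lce1m, a cornified envelope protein, at 14.8. Krt1, Krtdap, Flg2, Dsc3 and Pkp1 completed the 10, at 10.7 to 14.7. Krt10 was at 71.6 and Krt14 at 28.1 in muscle 60, but other samples kept them from the rule (Krt10 at 1.25 to 2.9 in liver). The skin list summed to 172 in muscle 60 and to 1.24 to 2.66 in the other muscles. Within muscle, 33 genes were at least 5 and at least 10 times every other muscle in muscle 60, a rule added after the values were seen.

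By the same added rule, 8 genes stood apart in muscle 59, and they belong to granulocytes and the red cell lineage. S100a9 was at 1.04, 0.997, 1.88, 36.2 and 0.499 in muscle 56 to 60, S100a8 at 0.978, 0.864, 0.362, 24.4 and 0.142, and Ngp, a granule protein of developing neutrophils, at 0, 0.0665, 0, 25.8 and 0.0713. Mpo, Ltf and Camp, further granule proteins, were at 10.1, 12.9 and 8.23 in muscle 59 and at most 0.465 in the other muscles, and Slc4a1, the anion exchanger of red cells, was at 9.92 and at most 0.0713. The neutrophil list summed to 96.6 in muscle 59 and to 0.855 to 2.60 in the others, the erythroid list to 587 against 291 to 344, and the list of cartilage and bone to 5.07 against 0.0723 to 0.798. In liver, Ppp1r3g, a glycogen-targeting subunit of a phosphatase, was at 65.6 in liver 16 and at most 1.31 in the other livers. In adipose 40, Mef2b was at 5.77 against at most 0.387 in the other adipose tissues. The rule also held for 9 genes in muscle 58, 4 in adipose 36 and 3 in liver 74, for 2 further genes in adipose 40, and for 0 genes in the other 8 samples.

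Cells that any of the tissues can hold also differed between samples of 1 tissue. B cell genes summed to 119, 14.8, 151, 47.9 and 188 in adipose 36 to 40 and to at most 18.5 in any liver, and T cell genes to 36.7, 7.01, 64.8, 19.7 and 43.1. Adipose 37 was lowest for both and was the sample with the most muscle genes. Kupffer cell genes, of the resident macrophages of liver, were at 170 to 612 in the livers, 8.67 to 28.03 in the adipose tissues and 0.579 to 1.32 in the muscles. Of the lists for organs not sampled, islet genes were at 0 in every liver and muscle, seminal vesicle genes at 0 in all 15 samples, and the testis list reached 33.8 to 52.5 in adipose tissue, which rested on Sycp3. The part of any of these cells in the differences between tissues was not tested. When adipose 36, adipose 37, muscle 58, muscle 59 and muscle 60 were left out, an alternative chosen after seeing the data, the restricted genes numbered 264 in liver, 160 in muscle and 16 in adipose tissue. Leaving out adipose 36 alone raised the liver number to 252, and adipose 37 alone the muscle number to 142.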

How the data were processed

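Tissue and age in the labels gave the groups of the 15 samples, and the 12 samples at 5 months served only as a second look. Reads were mapped and counted by the authors with CLC Genomics Workbench, whose genome build is not given in the sources used here, and the authors deposited a scaled signal, which is CPM divided by a factor for each sample. The step of 1 read was found from the lowest values and 100% of the values in each sample were whole reads within 0.1 read. A TMM factor recomputed from those reads was within 2.014% of the deposited one. The design had assumed plain CPM, and its tests were kept. No column of sample values was left unused.

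Each tissue was compared with the mean of the other 2 on log2(value + 1) by limma (version 3.58.1, R 4.3.3, variance trend), with Benjamini-Hochberg adjustment over all genes tested at a threshold of 0.05. On the recovered reads, edgeR 4.0.16 called 5507 genes higher and 5656 lower in liver, 5849 and 4988 in adipose tissue, and 5367 and 6293 in muscle. DESeq2 1.42.0 was an alternative as well. The fit was also run on simulated reads in which few genes changed, unlike these data, so that run does not test the effect of the scaling. Restricted, missing, foreign and single-sample genes were found by thresholds on the values, with no test. The genes named are, per tissue, the 10 restricted genes with the largest difference and the 5 missing genes with the lowest, the 5 foreign reporters with the highest value for each pair of tissues, the 5 single-sample genes with the highest value, members of fixed lists, and Mlx. Others were named after their values were seen, and some genes that meet the rule are not reported here. The members and lists were chosen with earlier results of these data known. Positions and promoters are from RefSeq, GRCm38.p6, matched by gene ID, and shared 50-base words were counted in GENCODE transcripts. Among 30 pairs of samples of 1 tissue, the lowest chi-square per degree of freedom was 9.811 and 0 pairs were identical, so each sample was counted once.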

Additional observations from a re-analysis of the deposited data

Results flagged for a closer look

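In groups of 5, a sample was set aside for a closer look when its gap to the nearest other sample exceeded Dixon's critical value for the range. This was so for 24 of the 152 groups tested, where chance flags about 1 in 20.

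Muscle 59 stood above the other muscles for the summed neutrophil genes (96.58, others 0.8552 to 2.604), erythroid genes (586.7, others 290.8 to 343.7), cartilage and bone genes (5.071, others 0.07233 to 0.7978) and Kupffer cell genes (1.323, others 0.5787 to 0.7824), and below them for adrenal genes (1.984, others 2.673 to 2.851). Muscle 60 stood apart for skin genes (172.4, others 1.239 to 2.659) and muscle 58 for liver plasma protein genes (117.1, others 17.93 to 29.47) and, at the level of 1 read, kidney genes (0.07233, others 0). Muscle 56 was highest for Lrrc2 (408.5, others 255.6 to 299.4), for adipose genes as a percent of their adipose sum (12.03%, others 3.775% to 6.133%) and for Hox genes (214.5, others 186.8 to 193.7), and lowest for endothelial genes (363.5, others 444.1 to 471.1).

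Adipose 37 stood apart for contractile genes (843, others 157.2 to 229.2), for muscle genes as a percent of their muscle sum (0.4836%, others 0.182% to 0.2363%) and for Kupffer cell genes (28.03, others 8.666 to 14.07). Adipose 36 was highest for Hox genes (283, others 147 to 186.4) and held an islet gene at the level of 1 read (0.02948, others 0). Adipose 39 was highest for epididymis genes (6.187, others 0 to 1.208) and skin genes (6.586, others 1.129 to 2.653).

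Among the livers, liver 74 was highest for contractile genes (31.33, others 5.852 to 11.56) and lowest for liver transcription factors (1730, others 2184 to 2328). Liver 16 was highest for muscle transcription factors (142.6, others 94.45 to 102.4) and epididymis genes (0.6615, others 0.1503 to 0.2121), and liver 19 held kidney genes at 0.1136 where the others were at 0. What sets these samples apart was not tested.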

How the results depend on the processing

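No paired analysis was possible because no number ties samples of different tissues at 20 months to 1 mouse. Leaving out each sample in turn gave 5270 to 5514 genes higher and 5717 to 6075 lower in liver, 5410 to 5750 and 5705 to 5958 in adipose tissue, and 5160 to 5388 and 6446 to 6647 in muscle. The genes higher than in each other tissue were then 2026 to 2093, 1853 to 1968 and 1827 to 1882, those restricted 183 to 252, 12 to 14 and 127 to 142, and those missing 28 to 37, 5 to 6 and 14 to 16. The single-sample genes numbered 0 without muscle 60. The numbers of genes higher, lower and higher than in each other tissue stayed within 1.5 times under pseudocounts of 0.1 and 0.5, median-of-ratios factors, quantile normalization, no filter, no variance trend, all 27 samples in 1 fit, edgeR and DESeq2. The fit of all 27 samples ignored that tissues at 5 months share mice.

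These numbers moved with the scaling. On CPM with no factor, 3550 genes were higher in liver, 9866 were higher and 2730 lower in adipose tissue, and 4017 were higher in adipose tissue than in each other tissue. Without the 20 most abundant genes the adipose numbers were 8930, 3276 and 3408. Among genes with at least 10 in at least 5 samples, a smaller set, 3476 were higher in adipose tissue and 1082 higher than in each other tissue. For Mlx without the factor, the liver difference was 0.645, the adipose difference 0.301 and the muscle difference -0.946. Of 250 named genes, 245 kept direction and side of the threshold under every alternative that gave them a value, which were fewer for the filter of at least 10 (213 genes) and DESeq2 (239 genes). These are the restricted and missing genes with the largest differences and members of fixed lists, many of them tissue markers. Many thus had little room to change side, and their number does not measure how stable the calls of all genes are. Besides Mlx in adipose tissue, the reversals were Cebpb in adipose tissue, at 0.522 with no factor, 0.306 without the 20 most abundant genes and 0.035 under quantile normalization, and Tcf21 in adipose tissue, at -0.091 under quantile normalization.

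The numbers of restricted and missing genes follow their thresholds. A home minimum of 5 gave 22 genes restricted to adipose tissue, 60 missing from liver and 26 missing from muscle, and a minimum of 20 gave 5, 10 and 4. With others under 0.5, 117 genes were restricted to liver, 6 to adipose tissue and 74 to muscle, and 2 were missing from adipose tissue and 1 from muscle. With others under 2, 282 were restricted to liver and 30 to adipose tissue, and 54, 8 and 35 were missing from liver, adipose tissue and muscle. Medians of each tissue gave 417, 54 and 209 restricted and 76, 13 and 50 missing. With no factor, 21 genes were restricted to adipose tissue, 84 to muscle, and 2 were missing from adipose tissue. With the 5 samples left out, 23 were missing from muscle. The single-sample genes numbered 29 at a minimum of 5, 3 at 20, and 6 with the others under 0.5.

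The highest percent of a foreign tissue's summed level depended on the reporters. For liver genes in adipose tissue it was 0.502% with reporters of at least 200, 0.554% with the third tissue under 0.5 and 1.49% with no factor. For liver genes in muscle it was 0.0879%, 0.684% and 0.0952%, and a minimum of 200 leaves out Hfe2. For adipose genes in muscle it was 553% with reporters of at least 50, a minimum that admits Acta1, 2.47% with 200 and 293% with no factor. For muscle genes in liver it was 2.33% with 200, 0.0888% with the third tissue under 0.5 and 0.134% with no factor, and for muscle genes in adipose tissue 0.858% with no factor. The cause of the other moves was not tested. Depth limits genes below 3 reads, a value of 0.0703 to 0.220.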
